A study of Mus musculus with 8 samples.

Results

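The nuclear receptors and the PGC-1 coactivators form a set of 38 genes among the 54532 genes of the count table. The set was taken by symbol: the classical steroid receptors for estrogen, progesterone, glucocorticoid and mineralocorticoid, the receptors for thyroid hormone, vitamin D and retinoids, the lipid-sensing PPARs, LXRs and FXR, the estrogen-related receptors, the clock receptors of the REV-ERB and ROR families, a group of orphan receptors, and the coactivators Ppargc1a and Ppargc1b. All 38 symbols were found. Their messenger RNA was measured by bulk RNA sequencing in atria of Chd4flox/flox mice, and 4 KO libraries were set against 4 control libraries. KO mice were injected on postnatal day 2 with AAV9:Nppa-Cre, a viral vector in which the promoter of Nppa, the atrial natriuretic peptide gene, drives Cre recombinase. Control mice received AAV9:Nppa-EGFP, the same kind of vector with a fluorescent protein in place of Cre, on the same day. All 8 libraries carried the floxed alleles. Cre was given to KO mice alone and EGFP to control mice alone, so loss of Chd4 and the change of vector cargo cannot be told apart. The labels gave the tissue as right and left atria of mixed cell type. No source used here gives the age at collection or how many mice make up a library, so the p-values cover only sample-to-sample spread, part of which may be technical.

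Nuclear receptors are transcription factors that are switched by small lipophilic ligands such as steroids, thyroid hormone, vitamin D, retinoids and fatty acids. Many of them bind DNA as heterodimers with a retinoid X receptor, so the RXR genes are shared partners of the thyroid hormone, vitamin D, retinoic acid, PPAR and LXR receptors. The PGC-1 coactivators bind PPARs and estrogen-related receptors and raise transcription of mitochondrial and fatty acid oxidation genes, a programme on which heart muscle depends for its energy. CHD4 is the ATP-dependent remodeller of the NuRD complex, and the title of the study names its interaction with TBX5, a T-box factor of atrial muscle.

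Total counts per library ran between 34002292 and 38228982 in KO atria and between 39804625 and 40588007 in control atria. Levels are given as CPM, counts divided by the library's effective size on the TMM scale, which corrects for differences in library composition. A count of 3 was the floor, worth 0.0744 to 0.0885 CPM, and covers counting error only. Chd4 itself averaged 185 ± 12.4 CPM in KO atria and 292 ± 13.3 CPM in control atria (SD, n = 4 each), a log2 fold change of -0.66 (SE 0.06, adjusted p = 1.86e-05). Tbx5 averaged 195 ± 12.0 CPM in KO atria and 305 ± 7.49 CPM in control atria. Libraries KO 2 and control 2 stood apart from the other 6 on the second principal component, which held 20.3% of the variance. Ddx3y, a Y-linked gene, was at 0.720 CPM in KO 2, 0.858 CPM in control 1 and 0.706 CPM in control 2, against 105 to 124 CPM in the other 5 libraries, so low Ddx3y was found in 1 of 4 KO and 2 of 4 control libraries. No library name prefix was found in both groups, so a difference that goes with a prefix cannot be told apart from one between KO and control. In bulk atria, fewer cells of a type and less RNA per cell cannot be told apart, and this holds for every value given here. The 10 cardiomyocyte markers summed to 46229 to 58900 CPM in KO atria and 68185 to 76571 CPM in control atria, and 6 of them were lower and 2 higher. Of 10 fibroblast markers, 6 were higher and none lower, with sums of 11147 to 13443 CPM in KO atria and 10653 to 11242 CPM in control atria. Of 10 endothelial markers, 5 were higher and 1 lower, with sums of 1996 to 2299 CPM in KO atria and 1765 to 1902 CPM in control atria. In all 8 fits that left out 1 library, the call was kept by 6 of the 8 called cardiomyocyte markers. The same held for 4 of the 6 called fibroblast markers and 2 of the 6 called endothelial markers. Marker counts here and below read against 14.8% higher and 13.1% lower over all genes tested. The part of these marker shifts in the receptor values below was not tested.

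The sequences printed here are promoters of Rxrg, Vdr, Esr2 and Nr1h3, shown because these members had the smallest adjusted p of the set. Each sequence is from RefSeq on GRCm38.p6, runs 5′ to 3′ on the strand of the gene and covers 250 bases before to 50 bases after an annotated transcript start. Capitals mark AGGTCA, the core element bound by many nuclear receptors, and AGGTGT, the core of the T-box element, searched on both strands. Rxrg has separate starts, and the downstream one holds AGGTCA.
Rxrg, upstream start, chr1:167598112-167598411, plus strand: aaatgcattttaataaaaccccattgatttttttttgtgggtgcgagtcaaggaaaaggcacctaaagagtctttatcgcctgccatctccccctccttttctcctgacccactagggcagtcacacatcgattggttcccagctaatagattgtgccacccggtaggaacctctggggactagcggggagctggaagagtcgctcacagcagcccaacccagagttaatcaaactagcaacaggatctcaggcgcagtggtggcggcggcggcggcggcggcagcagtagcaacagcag
Rxrg, downstream start, chr1:167618015-167618314, plus strand: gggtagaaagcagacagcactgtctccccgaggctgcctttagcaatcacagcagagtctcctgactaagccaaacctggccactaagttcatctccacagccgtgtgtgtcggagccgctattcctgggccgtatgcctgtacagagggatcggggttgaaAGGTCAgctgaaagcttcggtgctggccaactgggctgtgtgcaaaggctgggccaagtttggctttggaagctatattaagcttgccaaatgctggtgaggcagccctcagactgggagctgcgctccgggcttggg
Vdr, chr15:97908247-97908546, minus strand: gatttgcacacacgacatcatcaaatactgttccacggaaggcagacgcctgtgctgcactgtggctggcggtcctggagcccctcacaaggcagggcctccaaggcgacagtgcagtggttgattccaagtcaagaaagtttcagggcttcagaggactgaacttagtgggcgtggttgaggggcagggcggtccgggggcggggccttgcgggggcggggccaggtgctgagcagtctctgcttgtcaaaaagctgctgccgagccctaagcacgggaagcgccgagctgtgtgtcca
Esr2, chr12:76177210-76177509, minus strand: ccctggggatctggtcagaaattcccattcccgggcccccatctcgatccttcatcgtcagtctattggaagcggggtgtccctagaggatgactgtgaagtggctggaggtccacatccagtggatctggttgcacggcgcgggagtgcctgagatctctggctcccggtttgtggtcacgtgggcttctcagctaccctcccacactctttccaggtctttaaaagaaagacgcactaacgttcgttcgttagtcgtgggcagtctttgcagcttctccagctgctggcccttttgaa
Nr1h3, chr2:91195067-91195366, minus strand: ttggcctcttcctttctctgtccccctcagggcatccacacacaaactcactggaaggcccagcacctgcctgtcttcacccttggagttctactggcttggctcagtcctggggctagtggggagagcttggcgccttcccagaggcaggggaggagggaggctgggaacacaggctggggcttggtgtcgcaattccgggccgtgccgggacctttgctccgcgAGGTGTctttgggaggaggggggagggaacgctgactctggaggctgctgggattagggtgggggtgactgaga
The Vdr, Esr2 and upstream Rxrg windows held neither hexamer, and the Nr1h3 window held AGGTGT. The hexamer AGGTCA was present in 11 of 55 promoters of members (20.0%), against 16.3% of all 32851 RefSeq promoters of that length. AGGTGT was present in 9 of 55 (16.4%), against 13.7% of all promoters. Those 9 promoters belonged to 8 genes. A further Nr1h3 window, chr2:91194986-91195285, overlaps the printed one and holds the same AGGTGT, so that site was counted for both. Promoters were found for 35 of 38 members, and Thra, Nr3c1 and Ppargc1b had no entry. A match describes these letters in this window and no binding.

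Of the 38 members, 34 passed the filter on low counts and were tested. Those that did not pass were Pgr, Nr2e3 and Hnf4a, which were near the floor, and Rorb. Rorb was low, at 0.0885 to 0.223 CPM in KO atria and 0.234 to 0.378 CPM in control atria. Pgr, Rorb, Nr2e3 and Hnf4a had summed counts over the 4 KO libraries of 2, 28, 7 and 3, against 11, 47, 2 and 4 over the 4 control libraries. Of the 34 tested members, 7 were lower in KO atria (20.6%) and 2 were higher (5.88%) by edgeR's quasi-likelihood test at a Benjamini-Hochberg adjusted p under 0.05 over all 18033 genes tested. Over all those genes, 13.1% were lower, 14.8% were higher and 27.9% were called in either direction. Scaling by total count alone in place of TMM gave 3696 higher and 1580 lower genes, beside 2677 higher and 2355 lower with TMM. Among the members, total count scaling gave 6 higher and 5 lower, so which direction held more members depended on the scaling. The background moved too: of all genes called, 70.1% were higher with total count scaling, beside 53.2% with TMM. The member counts of each scaling read against its own background. The number of higher members was 4 without KO 1 or control 2, and 1 without KO 2, control 1 or control 4. The median log2 fold change of the tested members was -0.04, beside 0.01 over all genes tested. The lower members were Esr2, Rxrg, Vdr, Ppara, Rxrb, Nr3c2 and Ppargc1b, and the higher members were Nr1h3 and Nr2c2. In 12 of the 34 the KO and control libraries did not overlap, beside 29.2% of all genes tested. A fall of at least 2-fold that passed the test was seen for Esr2 and Rxrg, beside 1.96% of all genes tested.

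**Figure D1:**
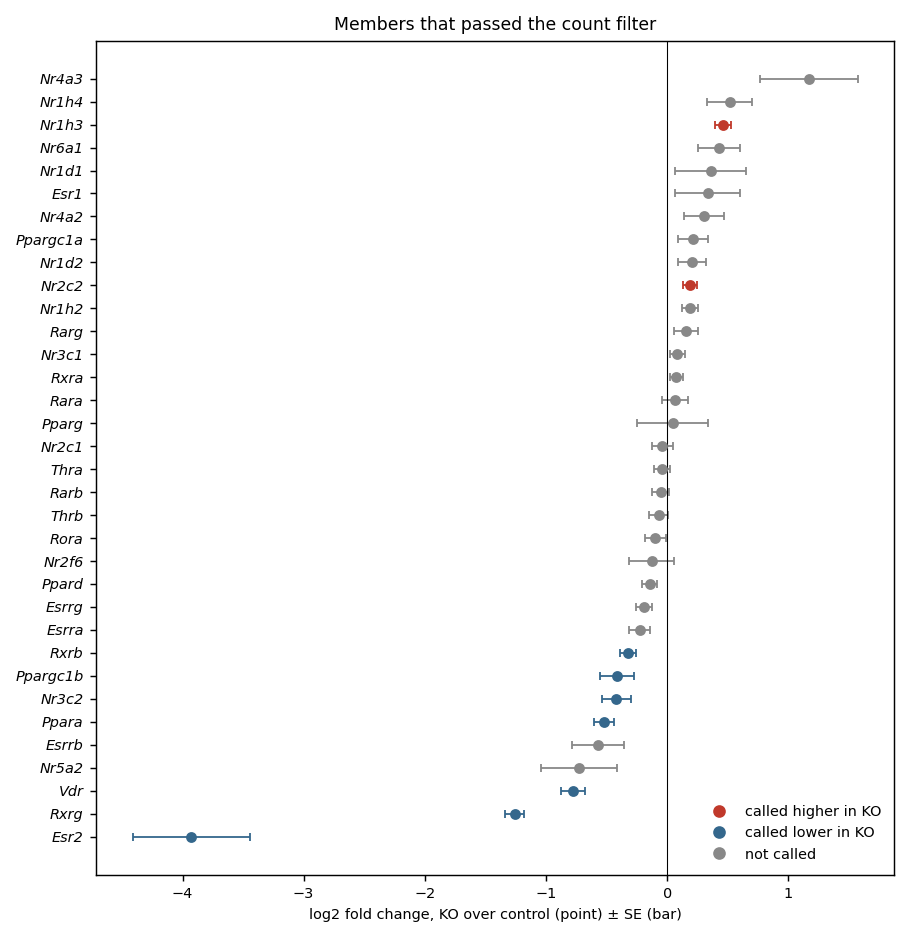
Log2 fold change of KO over control for the 34 tested members, in order of size, with bars of 1 SE; red and blue mark members called higher and lower in KO atria. Esr2 at -3.93 and Rxrg at -1.26 lie lowest, and 18 members lie within 0.25 of 0.

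The retinoid X receptors supply the partner chain for many receptors of the set, and Rxrg and Rxrb fell in KO atria while Rxra did not pass the test. Rxrg, the isoform known for striated muscle and brain, lies at chr1:167598384-167639623 on the plus strand of GRCm38, in the GENCODE M21 annotation used throughout. It had 11.8, 12.3, 11.9 and 11.5 CPM in KO atria, against 30.9, 25.1, 28.7 and 28.9 CPM in control atria. The groups were far apart, and the 4 KO libraries lay within 1 CPM of each other. The fall was 2.39-fold, with a log2 fold change of -1.26 (SE 0.08, adjusted p = 6.44e-07). Rxrb, the broadly expressed isoform, had 38.5, 42.3, 44.0 and 40.2 CPM in KO atria, against 50.4, 48.1, 52.0 and 55.6 CPM in control atria. Every KO library lay below every control library, and Rxrb fell 1.25-fold (log2 fold change -0.32, SE 0.06, adjusted p = 0.00312). Rxra, the main isoform of the developing heart in mice, averaged 75.0 ± 2.21 CPM in KO atria and 71.2 ± 2.58 CPM in control atria, and its log2 fold change of 0.08 had an interval of -0.04 to 0.19 (adjusted p = 0.304).

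On the scale of CPM per kb of exon, Rxra made up 49.1%, 45.6%, 45.3% and 47.7% of the RXR family level in the KO libraries, against 32.3%, 35.7%, 34.5% and 33.5% in the control libraries. The Rxrg share averaged 17.6 ± 0.384% in KO atria and 32.2 ± 1.83% in control atria. In control atria the 3 isoforms were thus close to each other in level per length, at 13.0 for Rxra, 13.0 for Rxrb and 12.4 for Rxrg, while in KO atria they were at 13.7 for Rxra, 10.4 for Rxrb and 5.17 CPM per kb for Rxrg. The closeness depends on the length scaling. By CPM not divided by exon length, Rxra held 58.6 ± 1.85% of the family in KO atria and 47.1 ± 1.41% in control atria. The share of Rxra did not overlap between the groups, and the exact two-sided permutation test gave p = 0.0286, the smallest that 4 against 4 libraries allow. Adjusted over the 11 families tested, this p was 0.0524. No family passed at an adjusted p under 0.05, on this scale or by CPM not divided by exon length. Every family whose printed share did not overlap had this same p, so the test does not rank them.

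**Figure D2:**
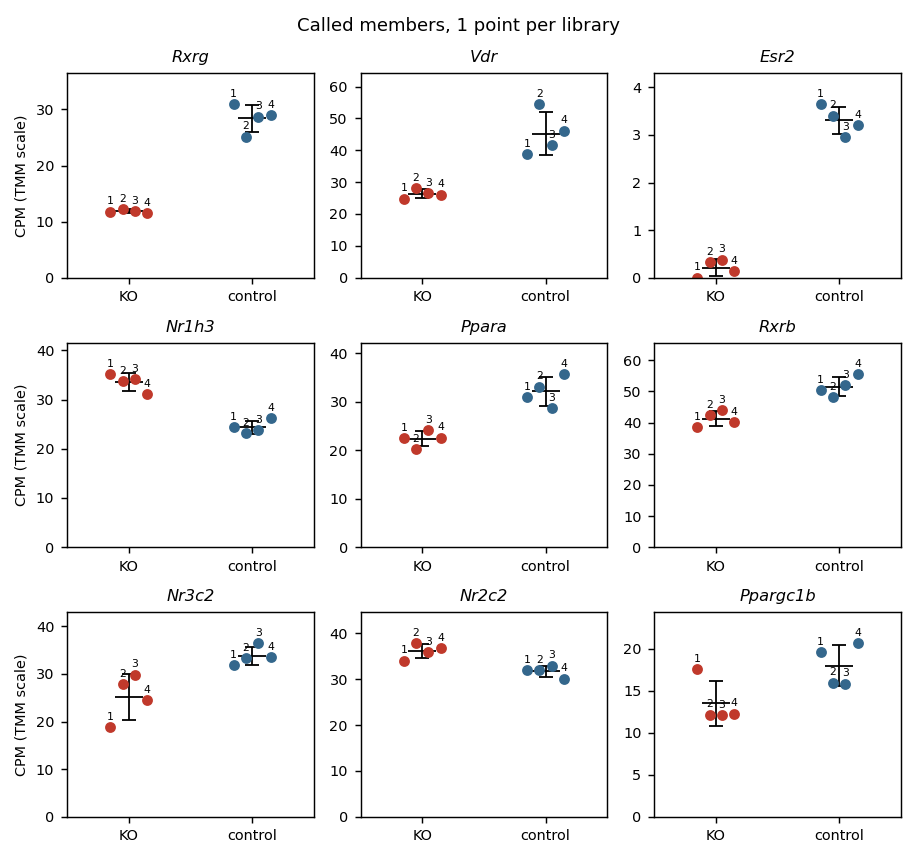
CPM in each library for the 9 called members, KO left of control, with the mean and SD of each group. Only Ppargc1b has KO and control libraries that overlap, through KO 1 at 17.6 CPM.

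Vdr, the vitamin D receptor, fell in KO atria. Its gene lies at chr15:97854425-97910630 on the minus strand. Vdr had 24.8, 28.1, 26.7 and 26.1 CPM in KO atria, against 38.8, 54.4, 41.6 and 46.2 CPM in control atria. All KO libraries were below the lowest control library, and the control libraries were the more spread. The fall was 1.71-fold (log2 fold change -0.78, SE 0.10, adjusted p = 0.000117).

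Among the PPARs, which sense fatty acids, Ppara fell and the other isotypes did not pass the test. Ppara, the isotype that drives fatty acid oxidation in heart and liver, lies at chr15:85734983-85802819 on the plus strand. It had 22.5, 20.3, 24.2 and 22.6 CPM in KO atria, against 30.9, 33.1, 28.7 and 35.7 CPM in control atria. The groups did not overlap, and the fall was 1.44-fold (log2 fold change -0.52, SE 0.08, adjusted p = 0.000617). Ppard, a broadly expressed isotype that also acts on fatty acid oxidation, averaged 37.6 ± 0.542 CPM in KO atria and 41.6 ± 2.73 CPM in control atria, with a log2 fold change of -0.14 (adjusted p = 0.0973), and its adjusted p was 0.0371 without control 2 and 0.0486 by limma-voom. In the other fits that left out 1 library the adjusted p of Ppard ran up to 0.24. Pparg, the adipogenic isotype, ranged over 2.31 to 6.53 CPM in KO atria and 3.09 to 4.89 CPM in control atria. The groups overlapped, and its fold change had an interval of -0.61 to 0.70 on the log2 scale. The highest Pparg level was in KO 4, a library in which the adipocyte markers summed to 130 CPM, against 7.49 to 13.1 CPM in the other KO libraries and 8.40 to 10.4 CPM in control atria. Adipoq, the adiponectin gene, had 15.8 CPM in KO 4 and under 1 CPM in each other library. Without KO 4 the log2 fold change of Pparg was -0.28 (adjusted p = 0.448). The part of adipocyte content in the Pparg level was not tested. Ppara made up 47.8 ± 2.67% of the PPAR family level per length in KO atria and 54.9 ± 1.78% in control atria (exact permutation p = 0.0286, adjusted 0.0524).

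The LXR receptors sense oxysterols and turn on cholesterol efflux and fatty acid synthesis. Nr1h3, which encodes LXRα and lies at chr2:91184061-91202834 on the minus strand, rose. It had 35.2, 33.7, 34.2 and 31.0 CPM in KO atria, against 24.3, 23.2, 23.7 and 26.2 CPM in control atria. Every KO library lay above every control library, and the rise was 1.37-fold (log2 fold change 0.46, SE 0.07, adjusted p = 0.000348). LXRα is known for high levels in macrophages, liver and fat, and the 10 macrophage markers summed to 416 to 533 CPM in KO atria and 387 to 457 CPM in control atria, with 5 markers higher and none lower. Of those 5 markers, 2 kept the call in all 8 fits that left out 1 library. The part of macrophage content in the Nr1h3 value was not tested. Nr1h2, which encodes the broadly expressed LXRβ, averaged 75.3 ± 5.93 CPM in KO atria and 66.2 ± 2.82 CPM in control atria, with a log2 fold change of 0.19 and an adjusted p of 0.0507, which did not pass the test. Nr1h2 was called higher in 8 of 20 alternatives, among them DESeq2 (adjusted p = 0.049), limma-voom (0.0126), total count scaling (0.0178), the Y-linked covariate (0.0286) and the fits without KO 1 (0.0186) and without control 2 (0.0401). Nr1h4, the bile acid receptor FXR, was at 1.85 to 2.65 CPM in KO atria and 1.40 to 1.89 CPM in control atria (log2 fold change 0.52, adjusted p = 0.0602), and its adjusted p was 0.0409 without KO 3 and 0.0455 by DESeq2. In the other fits that left out 1 library the adjusted p of Nr1h4 ran up to 0.153. The Nr1h2 share of the 3 genes per length was 60.9 ± 2.22% in KO atria and 65.4 ± 1.66% in control atria (exact permutation p = 0.0286, adjusted 0.0524).

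The retinoic acid and thyroid hormone receptors did not pass the test in either direction. Rara averaged 29.8 ± 4.50 CPM in KO atria and 28.4 ± 2.89 CPM in control atria, with an interval of the log2 fold change of -0.17 to 0.31. Rarb averaged 18.8 ± 1.10 CPM in KO atria and 19.5 ± 0.538 CPM in control atria, with an interval of -0.20 to 0.10. On the annotation, 34.1% of the exonic bases of Rarb overlap exons of Top2b on the opposite strand, and the sources used here do not name the strand setting of the counting, so the Rarb value is uncertain. Rarg averaged 35.6 ± 4.59 CPM in KO atria and 32.0 ± 3.15 CPM in control atria, with an interval of -0.06 to 0.37. Thra, which encodes the main thyroid hormone receptor of heart muscle, had the highest level per length of all members in control atria. Exons of Thra and Nr1d1 on opposite strands overlap over 263 bases, 5.70% of Thra and 8.55% of Nr1d1 exonic bases. With the strand setting unknown, the part of this overlap in either level is uncertain. Thra averaged 167 ± 7.94 CPM in KO atria and 172 ± 12.1 CPM in control atria, with an interval of the log2 fold change of -0.18 to 0.10. Thrb averaged 23.1 ± 1.99 CPM in KO atria and 24.3 ± 1.30 CPM in control atria, with an interval of -0.24 to 0.10. Thra made up 92.0 ± 0.562% of the pair per length in KO atria and 91.9 ± 0.622% in control atria (exact permutation p = 0.714). The directions of Rarb, Thra and Thrb turned when libraries were scaled by total count alone, to log2 fold changes of 0.03 for Rarb, 0.04 for Thra and 0.01 for Thrb, in a scaling that moved the median of all genes by 0.08.

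**Figure D3:**
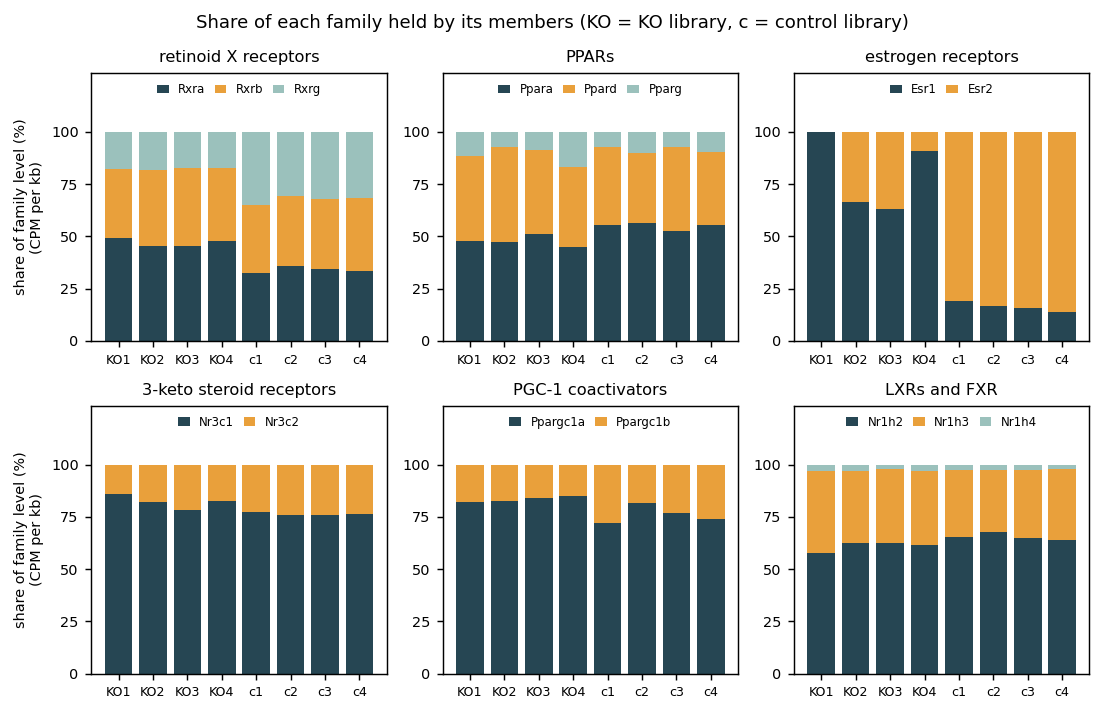
Stacked bars give the share of the family level, as CPM per kb of exon, held by each member in each library, for the 6 families whose printed share did not overlap between the groups, KO libraries left of control libraries. The Rxrg share is smaller in all 4 KO libraries, and Esr2 holds 0% to 36.9% of the estrogen receptor pair in KO libraries and 80.7% to 86.2% in control libraries. No family passed the permutation test after adjustment.

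Of the steroid receptors, Esr2 showed the deepest fall of all members. Esr2 encodes estrogen receptor β and lies at chr12:76120419-76177259 on the minus strand. Its counts were 0, 13, 14 and 5 in KO atria, against 140, 135, 116 and 126 in control atria. On the CPM scale these were 0, 0.323, 0.381 and 0.135 CPM in KO atria, against 3.64, 3.40, 2.96 and 3.21 CPM in control atria. Each control library exceeded the highest KO library several times over, although Esr2 was a weakly expressed gene in both groups. The fall was 15.2-fold (log2 fold change -3.93, SE 0.49, adjusted p = 0.000179), with an interval of -5.00 to -2.85 on the log2 scale. Esr1, which encodes estrogen receptor α, was at 2.83, 2.58, 2.64 and 5.39 CPM in KO atria and 3.54, 2.77, 2.27 and 2.09 CPM in control atria, so the groups overlapped (log2 fold change 0.33, adjusted p = 0.381). Its highest level, like that of Pparg, was in KO 4. Esr2 made up 0%, 33.6%, 36.9% and 9.25% of the pair per length in the KO libraries, against 80.7%, 83.3%, 84.1% and 86.2% in the control libraries (exact permutation p = 0.0286, adjusted 0.0524). By CPM not divided by exon length, the Esr2 share was 6.54 ± 6.25% in KO atria and 55.7 ± 4.07% in control atria (SD, n = 4 each), so its size depends on the length scaling while the groups stayed apart on both scales.

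Nr3c1, the glucocorticoid receptor, averaged 138 ± 9.67 CPM in KO atria and 131 ± 4.70 CPM in control atria (log2 fold change 0.08, interval -0.05 to 0.22). Nr3c2, the mineralocorticoid receptor that binds aldosterone, had 18.8, 27.8, 29.9 and 24.5 CPM in KO atria, against 31.9, 33.4, 36.4 and 33.6 CPM in control atria. The groups did not overlap, with KO 1 the lowest library, and the log2 fold change was -0.42 (SE 0.12, adjusted p = 0.0246). The call on Nr3c2 was lost without KO 4 (adjusted p = 0.0673), without control 3 (0.0611) and without control 4 (0.0543). Nr3c1 made up 86.0%, 82.1%, 78.3% and 82.5% of the pair per length in the KO libraries, against 77.4%, 76.1%, 76.0% and 76.4% in the control libraries (exact permutation p = 0.0286, adjusted 0.0524). Pgr, the progesterone receptor, had at most 5 counts in any library.

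The estrogen-related receptors are orphan receptors that act with PGC-1 on mitochondrial genes. None of the 3 passed edgeR's test, although all had log2 fold changes below 0, and DESeq2 called all 3 lower with the same libraries (adjusted p = 0.0396 for Esrra, 0.0174 for Esrrb and 0.032 for Esrrg). Limma-voom called Esrra (adjusted p = 0.0156) and Esrrb (0.0395), and so did edgeR with Y-linked expression as a covariate (0.0419 for Esrra and 0.00795 for Esrrb). Esrra, second among members in level per length in control atria, averaged 129 ± 11.6 CPM in KO atria and 151 ± 14.6 CPM in control atria, with a log2 fold change of -0.23 (adjusted p = 0.0601). The adjusted p of Esrra was 0.0221 without KO 1 and 0.0139 without control 2, but 0.159 without KO 4. With total count scaling the adjusted p was 0.18 for Esrra, 0.101 for Esrrb and 0.273 for Esrrg. Of the 20 alternatives, 8 called Esrra, 4 called Esrrb and 3 called Esrrg. Esrrg, known for the oxidative metabolism of heart muscle, averaged 34.3 ± 1.86 CPM in KO atria and 39.1 ± 2.64 CPM in control atria, and its groups did not overlap (log2 fold change -0.19, adjusted p = 0.0539, and 0.0351 without KO 1). Esrrb had 14.5, 8.14, 14.7 and 11.1 CPM in KO atria, against 16.5, 14.9, 24.4 and 15.8 CPM in control atria. All KO libraries of Esrrb were below all control libraries, but the spread in both groups was wide (log2 fold change -0.57, SE 0.21, adjusted p = 0.0762). Esrra held 79.7 ± 0.625% of the family level per length in KO atria and 78.8 ± 2.47% in control atria (exact permutation p = 0.457).

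The log2 fold changes of the PGC-1 coactivators had opposite signs, and only Ppargc1b passed the test. Ppargc1b, which encodes PGC-1β, had 17.6, 12.2, 12.1 and 12.3 CPM in KO atria, against 19.6, 16.0, 15.8 and 20.6 CPM in control atria. KO 1 lay among the control libraries, and the other KO libraries lay below all of them. The log2 fold change was -0.41 (SE 0.14, adjusted p = 0.0437), and the call was lost in 5 of 8 fits that left out 1 library. Those were the fits without KO 2 (adjusted p = 0.115), KO 3 (0.115), KO 4 (0.114), control 1 (0.109) and control 4 (0.123). Ppargc1a, which encodes PGC-1α, the inducible coactivator of mitochondrial biogenesis, had 131, 95.6, 104 and 116 CPM in KO atria, against 83.3, 119, 86.0 and 97.1 CPM in control atria. KO 2 lay below control 2 and control 4, so the groups overlapped, with a log2 fold change of 0.21 (adjusted p = 0.245). Without control 2 the log2 fold change of Ppargc1a was 0.33 and its adjusted p was 0.0379. In the other fits that left out 1 library the adjusted p of Ppargc1a ran up to 0.52. The Ppargc1a share of the pair per length was 83.4 ± 1.42% in KO atria and 76.2 ± 4.24% in control atria (exact permutation p = 0.0286, adjusted 0.0524).

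The REV-ERB and ROR receptors act on opposite sides of the clock loop that drives Arntl: REV-ERBs repress it and RORs activate it. Nr1d1, which encodes REV-ERBα, had 198, 77.7, 103 and 97.9 CPM in KO atria, against 84.8, 110, 89.7 and 87.2 CPM in control atria. KO 1 was well above the other 7 libraries, which overlapped (log2 fold change 0.36, SE 0.29, adjusted p = 0.415). In KO 1 the clock output gene Dbp was also highest, at 99.7 CPM against 34.4 to 54.0 CPM in the other KO libraries and 20.1 to 41.6 CPM in control atria, and Per1 was lowest, at 53.1 CPM. Over the clock list with Nr1d1 and Nr1d2 added, 5 genes were highest in KO 1 and 5 in control 2. High clock gene levels were thus not particular to KO 1. The sources used here give no time of day of collection, and its part in these values was not tested. Without KO 1 the log2 fold change of Nr1d1 was -0.0050. Nr1d2, which encodes REV-ERBβ, averaged 162 ± 15.9 CPM in KO atria and 140 ± 24.8 CPM in control atria (log2 fold change 0.21, adjusted p = 0.216), and control 2 lay within the KO range at 176 CPM. Without control 2 the adjusted p of Nr1d2 was 0.011, and it ran up to 0.433 in the other fits that left out 1 library. Rora averaged 58.4 ± 4.21 CPM in KO atria and 62.6 ± 7.54 CPM in control atria (interval of the log2 fold change -0.29 to 0.09).

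**Figure D4:**
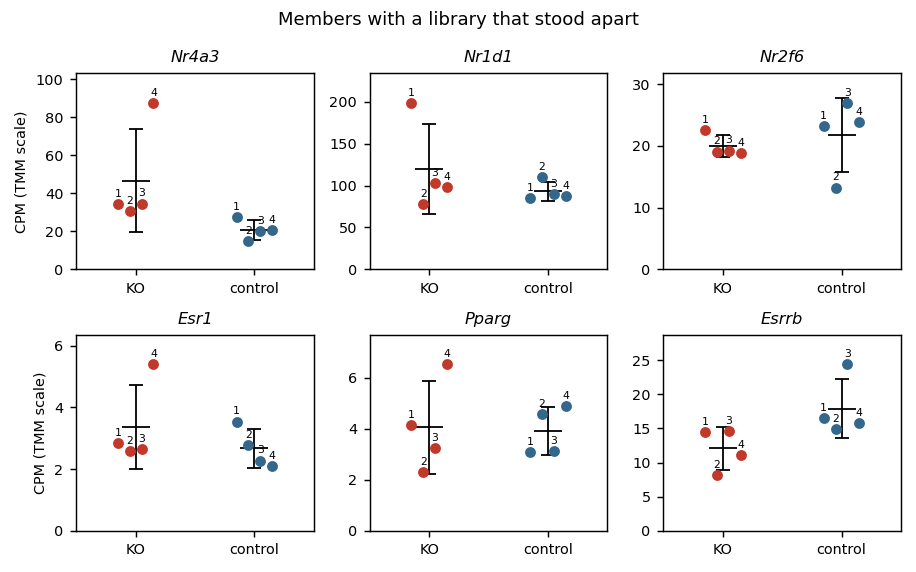
CPM in each library for Nr4a3, Nr1d1, Nr2f6, Esr1, Pparg and Esrrb, members picked for uneven libraries, KO left of control, with the mean and SD of each group. Pparg and Nr1d1 were not among the members flagged by the single-library tests given below. Ppargc1b and Nr5a2 were flagged and are not shown here. KO 4 is highest for Nr4a3 at 87.3 CPM, Esr1 at 5.39 CPM and Pparg at 6.53 CPM, and KO 1 is highest for Nr1d1 at 198 CPM.

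The NR4A receptors are immediate early genes that act without a known ligand. Nr4a3, which encodes NOR1, had 34.4, 30.5, 34.6 and 87.3 CPM in KO atria, against 27.6, 14.8, 20.1 and 20.6 CPM in control atria. All KO libraries were above all control libraries, and KO 4 was more than 2 times any other. The 2.25-fold difference did not pass edgeR's test (log2 fold change 1.17, SE 0.41, adjusted p = 0.0767) but was called by DESeq2 (adjusted p = 0.0187) and limma-voom (0.0387). Without KO 4 the log2 fold change was 0.68 and the adjusted p was 0.0242. In the other fits that left out 1 library the adjusted p of Nr4a3 ran up to 0.168. Nr4a2, which encodes NURR1, averaged 6.30 ± 1.33 CPM in KO atria and 5.11 ± 0.513 CPM in control atria (log2 fold change 0.30, adjusted p = 0.189). Its adjusted p was 0.0219 without KO 1 and ran up to 0.401 in the other fits that left out 1 library.

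Among the orphan receptors of the NR2, NR5 and NR6 groups, only Nr2c2 passed the test. Nr2c2, which encodes TR4, had 34.1, 37.8, 36.0 and 36.9 CPM in KO atria, against 32.1, 31.9, 33.0 and 30.1 CPM in control atria. The groups were close but did not overlap (log2 fold change 0.19, SE 0.06, adjusted p = 0.0346). The call on Nr2c2 was lost in 6 of 8 fits that left out 1 library, those without KO 2 (adjusted p = 0.102), KO 3 (0.0728), KO 4 (0.0802), control 1 (0.074), control 2 (0.0572) and control 4 (0.108). Exons of Mrps25 on the opposite strand overlap 30.7% of its exonic bases, and Mrps25 itself was 1.27-fold higher (adjusted p = 0.012), so with the strand setting unknown the Nr2c2 value is uncertain. Nr2c1, which encodes TR2, averaged 12.4 ± 0.781 CPM in KO atria and 12.7 ± 0.785 CPM in control atria. Nr2f6 ranged over 18.9 to 22.6 CPM in KO atria and 13.2 to 26.9 CPM in control atria, with control 2 the lowest library, and 54.4% of its exonic bases overlap exons of Ocel1 on the opposite strand. Without control 2 the adjusted p of Nr2f6 was 0.0267, and it ran up to 0.974 in the other fits that left out 1 library. Nr5a2 averaged 0.509 ± 0.215 CPM in KO atria and 0.842 ± 0.129 CPM in control atria (log2 fold change -0.73, adjusted p = 0.104, with 0.0202 without KO 1 and 0.0256 by limma-voom). In the other fits that left out 1 library the adjusted p of Nr5a2 ran up to 0.241. Nr6a1, known for germ cells, averaged 4.46 ± 0.881 CPM in KO atria and 3.31 ± 0.394 CPM in control atria (log2 fold change 0.43, adjusted p = 0.0831, and 0.0477 without KO 3). In the other fits that left out 1 library the adjusted p of Nr6a1 ran up to 0.231.

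By level per length, the leading members in control atria were Thra at 37.3, Esrra at 34.5, Nr1d1 at 30.2, Nr1d2 at 25.9 and Nr1h2 at 19.7 CPM per kb, and the same genes led in KO atria at 36.2 for Thra, 29.5 for Esrra, 38.7 for Nr1d1, 29.9 for Nr1d2 and 22.4 CPM per kb for Nr1h2. Esr2 was at 0.0623 CPM per kb in KO atria and 0.981 CPM per kb in control atria, rank 30 of 38 members in control atria. Of the 34 tested members, 18 had log2 fold changes within 0.25 of 0.

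The genes through which these receptors act were taken from lists by receptor, and each count below reads against 14.8% higher and 13.1% lower over all genes tested. The list of estrogen-related receptor and PGC-1 targets, which are mainly genes of the respiratory chain and the citric acid cycle, had 13 of 26 genes lower and none higher, and the median of its log2 fold changes was -0.25. Of these, 12 kept the call in all 8 fits that left out 1 library. Cox8b, a cytochrome oxidase subunit, had 80.6, 68.6, 71.9 and 70.7 CPM in KO atria, against 113, 116, 110 and 117 CPM in control atria, and fell 1.56-fold (adjusted p = 1.42e-05). Cox7a1 fell 1.67-fold (adjusted p = 1.74e-05) and Cox5b fell 1.54-fold (adjusted p = 6.09e-05). These genes are also abundant in cardiomyocytes, whose marker sum was lower in every KO library than in every control library, and the part of that in the counts was not tested.

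The PPAR targets went both ways, with 4 of 25 higher and 5 lower, the list median being -0.02 on the log2 scale. Plin5, a lipid droplet protein, rose 1.97-fold (adjusted p = 0.00106), and Cpt1a, Cpt2 and Plin2 were the other higher genes. Slc27a1, a fatty acid transporter, fell 1.74-fold (adjusted p = 0.00207), Fabp3, the heart fatty acid binding protein, fell 1.41-fold (adjusted p = 0.0018) and Lpl, lipoprotein lipase, fell 1.37-fold (adjusted p = 0.00174). The calls on Cpt2 and Plin2 were each lost in most fits that left out 1 library.

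The thyroid hormone pathway had 7 of 13 tested genes higher and 2 lower, the list median being 0.33 on the log2 scale, although neither receptor passed the test. Hcn2, a pacemaker channel gene, rose 2.10-fold (adjusted p = 0.000466), Thrsp, a lipogenic gene, rose 1.74-fold (adjusted p = 0.00254) and Me1, malic enzyme, rose 1.35-fold (adjusted p = 0.00109). Slc16a10, which transports thyroid hormone, fell 1.35-fold (adjusted p = 0.000143). Of the 9 called genes, 8 kept the call in all 8 fits that left out 1 library, Dio2 being the exception.

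Of 13 tested genes of retinoid supply and response, 5 were higher and none lower, the list median being 0.24 on the log2 scale. Aldh1a3 and Aldh1a1 make retinoic acid. Aldh1a3 had 11.3, 14.6, 13.2 and 13.7 CPM in KO atria, against 6.53, 7.74, 6.61 and 7.05 CPM in control atria, and rose 1.89-fold (adjusted p = 6.54e-05). Aldh1a1 rose 1.46-fold (adjusted p = 0.00214). Dhrs3 and Rdh10 were also higher but lost the call in several fits that left out 1 library. The 10 epicardial markers summed to 819 to 994 CPM in KO atria and 604 to 797 CPM in control atria, and 7 of them were higher and none lower. Of those 7 markers, 3 kept the call in all 8 fits that left out 1 library. Aldh1a2 is in both the retinoid list and the epicardial marker list, so the counts of these lists are not independent. Retinoic acid synthesis is known for the epicardium of the mouse heart, and the part of epicardial content in these values was not tested.

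**Figure D5:**
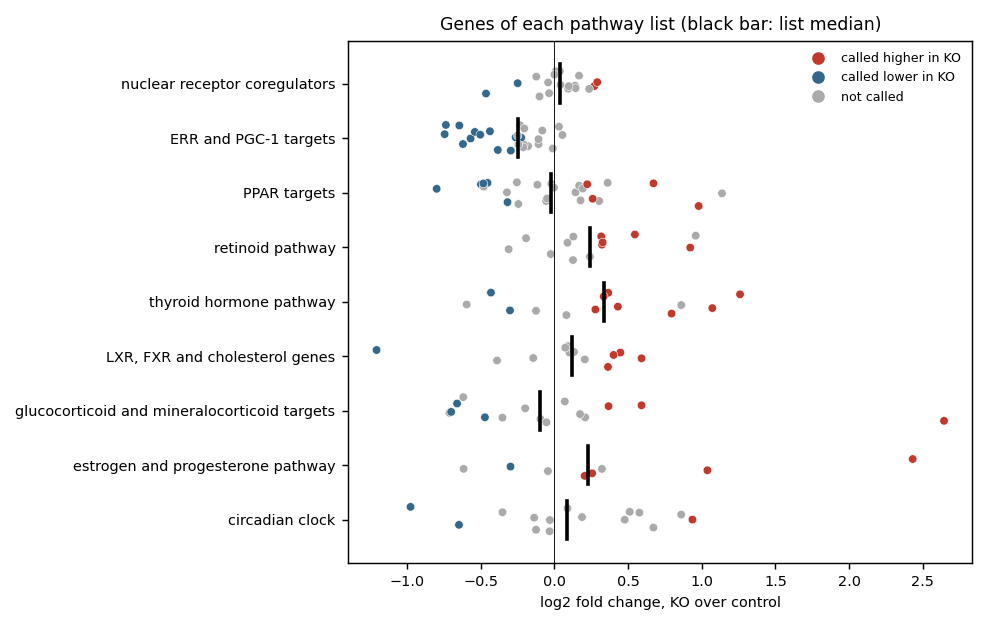
Each point is the log2 fold change of KO over control of 1 tested gene of a pathway list, and the black bar is the list median; red and blue mark genes called higher and lower in KO atria. The estrogen-related receptor (ERR) and PGC-1 targets lie mostly below 0, with a median of -0.25. Mt2, weakly expressed in both groups, at 2.64 and Greb1 at 2.43 lie farthest to the right.

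Of 8 tested genes of the estrogen and progesterone pathway, 4 were higher and 1 lower, the list median being 0.23 on the log2 scale. Greb1, a gene known for its induction by estrogen receptor α in breast cells, had 3.54, 8.83, 10.1 and 7.48 CPM in KO atria, against 1.17, 1.49, 2.04 and 0.84 CPM in control atria. All KO libraries were above all control libraries, and Greb1 rose 5.39-fold (adjusted p = 0.000708). Gata3 rose 2.05-fold (adjusted p = 0.00355), Igfbp4 rose 1.19-fold (adjusted p = 0.0102) and Hsd17b4, a peroxisomal enzyme, fell 1.23-fold (adjusted p = 0.00232). Of 15 glucocorticoid and mineralocorticoid targets, 3 were higher and 3 lower, and only Mt1 and Mt2 kept the call in all 8 fits that left out 1 library. Mt2, a metallothionein, averaged 1.33 ± 0.220 CPM in KO atria and 0.211 ± 0.0323 CPM in control atria and rose 6.25-fold (adjusted p = 2.93e-05). The Mt2 level was low in both groups, beside a floor of 0.0744 to 0.0885 CPM, which limits the size of this fold change. Mt1 rose 1.51-fold (adjusted p = 0.00103).

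Of 12 tested genes of the LXR, FXR and cholesterol list, 4 were higher and 1 lower, the list median being 0.12 on the log2 scale. Apoe, an LXR target that carries cholesterol, rose 1.36-fold (adjusted p = 0.000911), and Fasn, fatty acid synthase, rose 1.32-fold (adjusted p = 0.00232). Nr0b2, an FXR target that encodes the repressor SHP, had 4.28, 2.90, 2.53 and 2.68 CPM in KO atria, against 7.15, 5.32, 7.81 and 8.28 CPM in control atria, and fell 2.31-fold (adjusted p = 0.000707). Abca1, the cholesterol exporter, averaged 78.2 ± 13.6 CPM in KO atria and 51.9 ± 9.66 CPM in control atria (adjusted p = 0.0213), and its adjusted p ran over 0.0523 to 0.0624 in the fits without KO 2, KO 3, KO 4, control 1, control 3 and control 4.

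Of 15 clock genes, 1 was higher and 2 lower. Npas2, a partner of Arntl and a target of both REV-ERB and ROR receptors, had 6.93, 7.24, 7.30 and 7.72 CPM in KO atria, against 14.5, 12.6, 13.6 and 16.7 CPM in control atria, and fell 1.97-fold (adjusted p = 3.54e-05). Bhlhe41 rose 1.91-fold (adjusted p = 0.00789). Arntl fell 1.57-fold (adjusted p = 0.0298), a call that was lost in 6 of 8 fits that left out 1 library, with adjusted p of 0.057 to 0.079.

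Coregulators, the proteins that receptors recruit to open or close chromatin, were mostly not called, with 2 of 18 higher and 2 lower and a median log2 fold change of 0.04. Carm1, an arginine methyltransferase coactivator, fell 1.38-fold (adjusted p = 0.000449) and Ncoa1, a steroid receptor coactivator, fell 1.19-fold (adjusted p = 0.0094). Med1, the Mediator subunit that contacts receptors, rose 1.22-fold (adjusted p = 0.00132) and Nrip1, a corepressor, rose 1.21-fold (adjusted p = 0.0142). All 4 kept the call in all 8 fits that left out 1 library. The 14 immediate early genes, listed beside the NR4A receptors, had 7 higher and none lower, the list median being 0.41 on the log2 scale. Btg2 rose 1.86-fold (adjusted p = 1.33e-05) and Atf3, which like Nr4a3 was highest in KO 4 at 52.7 CPM, rose 3.32-fold (adjusted p = 0.00359). The calls on Egr1, Egr2 and Egr3 were lost in several fits that left out 1 library.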

How the data were processed

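The deposited table held raw read counts per gene for 8 libraries, whole numbers that the authors had not normalized. Per the submitters' processing notes, STAR, DESeq2 and the mm10 build were used; versions, the sources used here do not name the counting tool, strand setting or annotation. Each column was assigned to its sample through the vector and number in its name. No library was left out.

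Counts were analysed in R 4.3.3 with edgeR 4.0.16: genes were kept by filterByExpr (minimum count 10, minimum total 15), which left 18033 of 33437 genes with any count, libraries were scaled by TMM, and the groups were tested by edgeR's quasi-likelihood method (robust, no covariate, 6 residual degrees of freedom). Benjamini-Hochberg adjustment ran over all genes tested, and a gene was called under 0.05. Confidence intervals are at 95%. Standard errors were taken from the fold change and the F statistic. DESeq2 1.42.0 and limma 3.58.1 served as alternatives, and the fit was tested on simulated data. Shares within families used CPM per kb of GENCODE M21 exon, with an exact two-sided permutation test over libraries. No replicate pair agreed within sampling noise (12.3 to 31.1 for the chi-square divided by its degrees of freedom).

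The members and the gene lists were chosen with earlier results of these data known. Every member is named. Called members and those at least 2-fold apart are given in every library, and up to 4 called genes of smallest p are named for each list; values of further genes are given where a count or a library turned on them and were chosen after their values were seen. Some list genes that the rule would name are not reported here, but the counts include them.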

Additional observations from a re-analysis of the deposited data

Results flagged for a closer look

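Among 68 tests of a single library against the other 3 of its group, 6 members had a library far from the rest, where chance gives about 1 in 20. In KO atria, Esr1 had 5.39 CPM in KO 4, against 2.58 to 2.83 CPM in the other KO libraries. Nr4a3 had 87.3 CPM in KO 4, against 30.5 to 34.6 CPM in the others. Ppargc1b had 17.6 CPM in KO 1, against 12.1 to 12.3 CPM in the others, and Nr2f6 had 22.6 CPM in KO 1, against 18.9 to 19.3 CPM in the others. In control atria, Esrrb had 24.4 CPM in control 3, against 14.9 to 16.5 CPM in the others, and Nr5a2 had 0.650 CPM in control 1, against 0.882 to 0.919 CPM in the others. KO 4 also held the adipocyte marker signal given beside Pparg, with Cfd at 39.3 CPM and Pck1 at 25.9 CPM, whose part in the Esr1 and Nr4a3 levels was not tested.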

How the results depend on the processing

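Esr2, Rxrg, Vdr, Ppara, Rxrb and Nr1h3 kept their direction and their call in all 20 alternatives, which comprised other scalings, filters and tests, the replicate block, a Y-linked covariate and fits with fewer libraries. Nr3c2 lost its call in 6 of them, Ppargc1b in 9 and Nr2c2 in 11. The number of higher members, 2, was 6 with total count scaling, 1 with no filter on low counts, 4 with a filter of at least 1 CPM in at least 4 libraries, 5 with DESeq2, 4 with limma-voom, 1 against controls 1 and 2 alone, 1 against controls 3 and 4 alone, and 1 to 4 when 1 library was left out. The number of lower members, 7, was 5 with total count scaling, 10 with DESeq2, 11 with limma-voom and 5 to 10 when 1 library was left out. The number of genes called, 5032, was 3915 to 5301 when 1 library was left out. Replicate numbers did not pair the samples as a set (correlations of deviations from the group means -0.02, 0.30, -0.06 and 0.105 for numbers 1 to 4). Only for number 2 was the control of the same number the closest to its KO library. With the replicate block, 4757 genes were called, with 1 member higher and 8 lower, and Esrrb was called (adjusted p = 0.00782). The Y-linked covariate also called Esrra, Esrrb and Nr1h2. Shares with a library left out are values without a test.

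Several uncalled members changed sign, and the cause was not tested. With total count scaling the log2 fold change was 0.0295 for Rarb, 0.0373 for Thra, 0.0111 for Thrb and 0.0426 for Nr2c1. Limma-voom gave -0.13 for Pparg and 0.0036 for Nr2c1, and the replicate block gave -0.0128 for Pparg. When 1 library was left out, Pparg ran over -0.28 to 0.242 (below 0 without KO 4, control 1 or control 3), Rara over -0.0243 to 0.132 (below 0 without KO 4), Nr1d1 over -0.0050 to 0.517 (below 0 without KO 1) and Nr2c1 over -0.0694 to 0.0050 (above 0 without control 2). Pparg was at -0.0090 against controls 3 and 4 alone and at -0.11 with the Y-linked covariate. Against controls 1 and 2 alone Thra was at 0.0211 and Nr2f6 at 0.11. Spread between 4 libraries limits members such as Pparg and Nr1d1, and low counts limit Pgr, Rorb, Nr2e3 and Hnf4a.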
